A study of Rattus norvegicus with 12 samples.

Results

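The empty-vector control of this series is a clone of INS1E, an insulin-secreting line derived from a rat insulinoma, and its expression profile is described here gene by gene. The profile rests on 2 of the 6 gene-level samples (the series lists 12 samples because the same arrays were also summarised at exon level). Every array feature with exactly 1 gene symbol was taken, the brightest one was kept for each symbol, and the mean log2 value of the 2 control samples was ranked over the resulting 18166 genes.

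The control clone was stably transfected with the vector pcDNA3 alone. Another clone carried human islet amyloid polypeptide (hIAPP) and one more the rat peptide (rIAPP), and the series compares these 3 clones, each measured in 2 samples lettered a and b. All 3 clones grew for 3 days at 11.1 mM glucose with 10% serum and 200 µg/mL geneticin, the drug that selects for the vector. Each group is a single clone. The effect of a transgene and a difference between clones therefore cannot be told apart. The p-values below reflect how far samples of the same clone spread, which may be technical. The sources used here do not name the promoter that drives the transgenes.

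Pancreatic beta cells couple glucose metabolism to the release of insulin. Glucose enters through a facilitative transporter, its oxidation raises ATP, ATP closes potassium channels, and the resulting depolarisation opens calcium channels that trigger the fusion of insulin granules. Insulin is made as a prohormone, folded in the endoplasmic reticulum (ER), cut by convertases and stored with IAPP and granins. Beta cells share much of this release machinery, and several transcription and splicing factors, with neurons.

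The level of a gene below is its log2 value on the array. Probes of different genes bind differently and the top of the array range is compressed, so ranks and percentiles describe brightness on the array and not the number of transcripts of one gene against another. The deposited values carry no detection call. As a reference, the same mean was taken over 1344 olfactory and vomeronasal receptor genes, which a beta-cell line has no known use for, and a gene was counted as above the reference when it exceeded their 95th percentile, 7.27. A strict reference used their 99th percentile, 8.36.

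The promoters of 3 genes and a pair of microRNAs are shown: those of both insulin genes and of the glucagon gene, because the levels of these hormones are described below, and the islet microRNA miR-375 with miR-7a, whose genes were measured on the array. The promoter sequences are the 250 bases before the annotated start of the RefSeq GRCr8 gene, 5′ to 3′ on the gene's own strand, at chr1:261185869-261186118 (plus strand) for Ins1, chr1:207273806-207274055 (minus strand) for Ins2 and chr3:67531534-67531783 (minus strand) for Gcg. Capitals mark matches on either strand to CATCTG (an E-box letter string of the kind bound by Neurod1), TAATTA and TAATGG (homeodomain core letters) and TATAAA (the TATA box). In the microRNAs, also from RefSeq GRCr8, capitals mark the seed, bases 2 to 8; miR-375-3p lies at chr9:83906591-83906612 (minus strand) and miR-7a-5p at chr17:6278710-6278732 (plus strand).
Ins1: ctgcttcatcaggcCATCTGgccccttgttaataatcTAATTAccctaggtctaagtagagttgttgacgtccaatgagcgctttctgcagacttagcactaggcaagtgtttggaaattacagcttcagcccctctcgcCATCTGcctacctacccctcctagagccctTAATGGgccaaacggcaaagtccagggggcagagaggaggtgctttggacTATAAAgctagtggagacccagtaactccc
Ins2: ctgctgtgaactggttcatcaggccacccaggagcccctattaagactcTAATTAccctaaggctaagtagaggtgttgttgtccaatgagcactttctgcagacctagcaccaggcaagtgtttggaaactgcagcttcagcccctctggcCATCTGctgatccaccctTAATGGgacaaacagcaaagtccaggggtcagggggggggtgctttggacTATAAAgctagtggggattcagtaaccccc
Gcg: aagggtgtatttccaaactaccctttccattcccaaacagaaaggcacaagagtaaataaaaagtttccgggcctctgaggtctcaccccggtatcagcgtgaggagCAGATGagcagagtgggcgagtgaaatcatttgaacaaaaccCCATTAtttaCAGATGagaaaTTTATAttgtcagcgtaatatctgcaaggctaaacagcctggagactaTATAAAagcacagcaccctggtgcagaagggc
rno-miR-375-3p: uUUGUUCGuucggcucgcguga
rno-miR-7a-5p: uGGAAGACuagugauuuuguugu

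In these windows Ins1 held the E-box letters 2 times and each of the other strings 1 time. Ins2 held 1 match to each of the 4 strings, and its nearer homeodomain string and its TATA box began at the same positions as in Ins1, 80 and 30 bases before the start. Gcg held the E-box letters 2 times on the other strand, 1 homeodomain string on the other strand and the TATA box letters 2 times, once on each strand. The Iapp promoter held none of these letters, which says nothing about the factors that bind it. Over the window that also takes in the first 50 bases of the gene, Ins1 and Ins2 matched at 254 of 313 aligned columns (81.2%). Among all 27457 promoters of that length, the E-box letters occurred in 16.3%, the homeodomain string that reads the same on both strands in 5.3%, the other homeodomain string in 8.4% and the TATA box letters in 14.3%. The matches describe letters and not bound sites, and no match overlapped another.

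Above the reference were 11720 of the 18166 genes (64.5%), and 9217 (50.7%) exceeded the strict one. The distribution had a broad dim hump, with the receptor genes on its lower side, and a second hump of brighter genes. The median gene read 8.44, the top decile began at 11.42, and the whole range ran from 4.24 to 14.07. The threshold fell in a continuous stretch of levels: Cox6b2, Col5a2 and Ubtfl1 lay just under it and Atp6v1e2, Lef1 and F12 just over it, all at 7.27. Array medians ran from 7.53 to 7.57 over the 6 samples, and between 11646 and 12090 genes exceeded each sample's own reference.

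**Figure D1:**
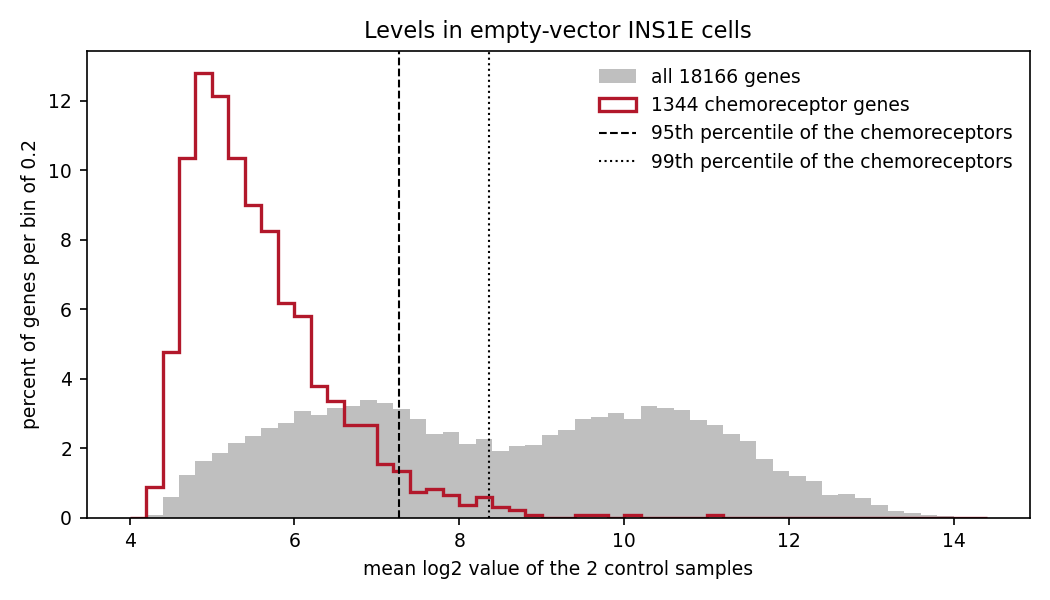
Percent of genes (vertical axis) per bin of 0.2 in the mean log2 value of the 2 control samples (horizontal axis), for all 18166 genes in grey and for the 1344 olfactory and vomeronasal receptor genes in red. The dashed and dotted lines are the 95th (7.27) and 99th (8.36) percentiles of the receptor genes, and the peak of the receptor genes lies to the left of that of the dim hump of all genes.

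The 2 control samples lay close together. Pearson r across genes, which are not independent of each other, was 0.9988. The median difference between the samples was 0.0574 on the log2 scale and 95% of genes differed by less than 0.2211. Bright genes repeated best: in the top decile the median difference was 0.0306, against 0.0827 between the 10th and 35th percentiles. Only 22 genes differed by 0.5 or more, and C5h9orf85, at 7.62 in control a and 8.65 in control b, was the only one to differ by 1 or more. The other 9 genes with the largest differences above the reference were Dlg5l14, Ighl13, Or52a20, Znrf4, Rpl28l3, Nlk, Cwc15-ps3, Prokr1 and Mir344a-2. Their means did not exceed 9.95, the level of Rpl28l3 (10.23 and 9.67).

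**Figure D2:**
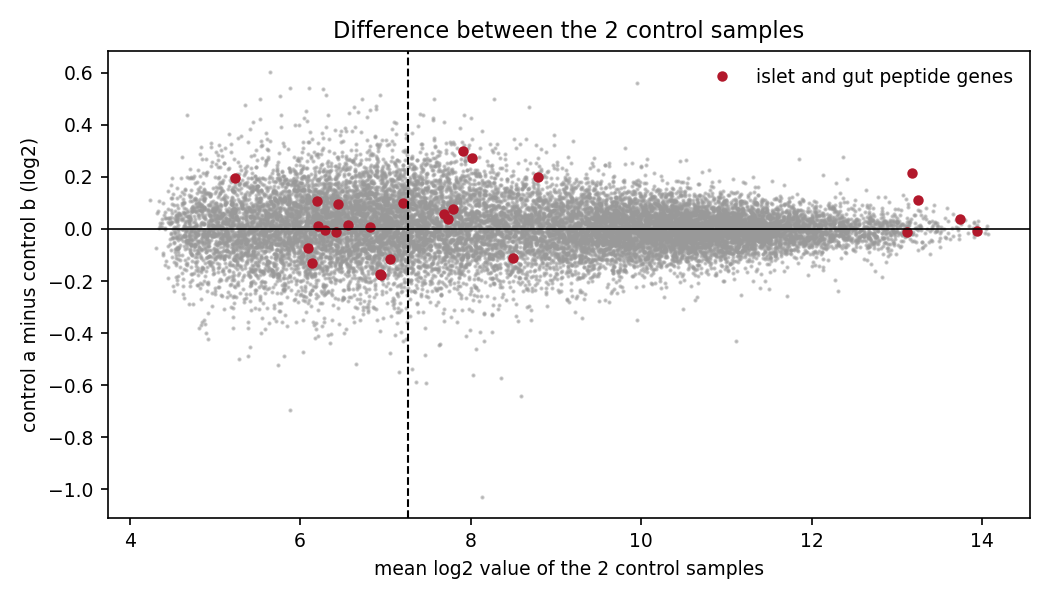
Control a minus control b (log2, vertical axis) against their mean (log2, horizontal axis), 1 grey point per gene and red points for the peptide hormone genes; the dashed line is the reference of 7.27. The scatter narrows toward bright genes, while Ins2 (13.28 and 13.06) and Ins1 (13.30 and 13.19) stand out at the bright end for a larger difference than most genes of their level.

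The brightest genes were a mixture of housekeeping and endocrine products. Ribosomal and mitochondrial transcripts led: Rps4x-ps9 (14.06 and 14.07), a processed pseudogene of a ribosomal gene whose signal cannot be told from that of near-identical copies, then Rpl41 (14.06 and 14.04) and the mitochondrially encoded COX3 (14.05 and 14.05). Glucagon (Gcg) ranked 6 and chromogranin B (Chgb) 7, ahead of COX1 and of the chaperone Hspa8. Pcsk2, the prohormone convertase, ranked 14, Iapp 19 and Slc2a2, the beta-cell glucose transporter, 24. Thus endocrine products stood among genes that nearly every cell transcribes strongly.

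Leaving out ribosomal, translation, cytoskeletal and predicted genes, the 20 brightest were COX3, Hist2h3c2, Gcg, Chgb, COX1, Hspa8, Txn1, Rpph1, Enpp2, Pcsk2, Atp5mk, Nnat, Iapp, Ndufc2, Gc, Hspa5, Slc2a2, Hepacam2, Atp5f1d and Pdia3. Enpp2 (13.91 and 13.88), the secreted enzyme autotaxin, Hepacam2 (13.71 and 13.71), an adhesion protein of the immunoglobulin family, and Nnat (13.81 and 13.78), a small imprinted membrane protein of brain and islet, are not housekeeping genes. Nnat has several features on the array and the dimmest read 9.44, so its rank rests on the choice of the brightest; the same holds for Rpl41, whose dimmest read 8.46. Gc (13.71 and 13.73) encodes the vitamin D binding protein, a plasma protein of the liver that alpha cells also make. The next in rank included the lipogenic enzyme Acly (13.62 and 13.55), the granin Chga, the transcription factor Neurod1, the calcium sensor Scgn (13.44 and 13.45) and fibronectin, Fn1 (13.42 and 13.41).

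Of the 500 brightest genes 489 of the 497 matched to annotation (98.4%) were protein coding, and 0 were receptor genes of the reference. Among the 500 dimmest, 306 were such receptor genes, and the median gene length was 948 bp against 17480 bp in the brightest 500 and 18310 bp over all genes. Promoters differed as well: the median GC content was 62.0% in the 407 of the brightest 500 that had a sequence, 57.3% over the 14577 measured genes with one, 48.3% in the 4939 below the reference and 35.3% in the 1146 receptor genes. The ratio of observed to expected CpG followed the same order, 0.85, 0.63, 0.25 and 0.12. The promoters of the receptor genes were thus AT-rich, and the part of base composition in the signal was not tested.

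Peptide hormones split into a few at the top of the array and many at its floor. Of 26 measured peptide genes 12 exceeded the reference (46.2%, against 64.5% of all genes), and 5 of them stood in the top decile. Gcg, the hormone of alpha cells, read 13.94 in control a and 13.95 in control b, and all 6 of its exon-level probe sets exceeded the exon-level reference of 7.56. Iapp read 13.76 and 13.72. This rat gene is endogenous to INS1E. Ins1 read 13.30 and 13.19 (rank 88) and Ins2 13.28 and 13.06 (rank 103), so both insulins lay below Gcg and Iapp in brightness, which gives no order of transcript numbers. Ins1 and Ins2 are close paralogs, and how far their probes share transcripts is not known here. Npy, a neuropeptide of fetal and dedifferentiated beta cells and of the sympathetic nervous system, read 13.11 and 13.12.

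Below this group came a gap. Gast (gastrin) read 8.88 and 8.69 and Cck (cholecystokinin) 8.44 and 8.55. Sst (somatostatin, the hormone of delta cells) read 8.15 and 7.88, and Ucn3, a late maturation marker of rodent beta cells, 8.06 and 7.76. Adm, Calca and Cartpt lay between 7.68 and 7.79, just over the reference and under the strict one. These intermediate levels fall in the range that receptor genes of the reference also reach.

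The remaining 14 peptide genes did not exceed the reference. They included Ppy (6.87 and 7.04), the hormone of PP cells, Ghrl (6.22 and 6.21), the ghrelin of epsilon cells, Pyy (6.06 and 6.13) and the gut hormone Gip (7.00 and 7.11). Gal, Vip, Tac1 and Nts, neuropeptides, read between 5.23 and 6.82. In the control clone, then, the alpha-cell hormone was among the brightest genes and the hormones of delta, PP and epsilon cells were dim or below the reference.

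**Figure D3:**
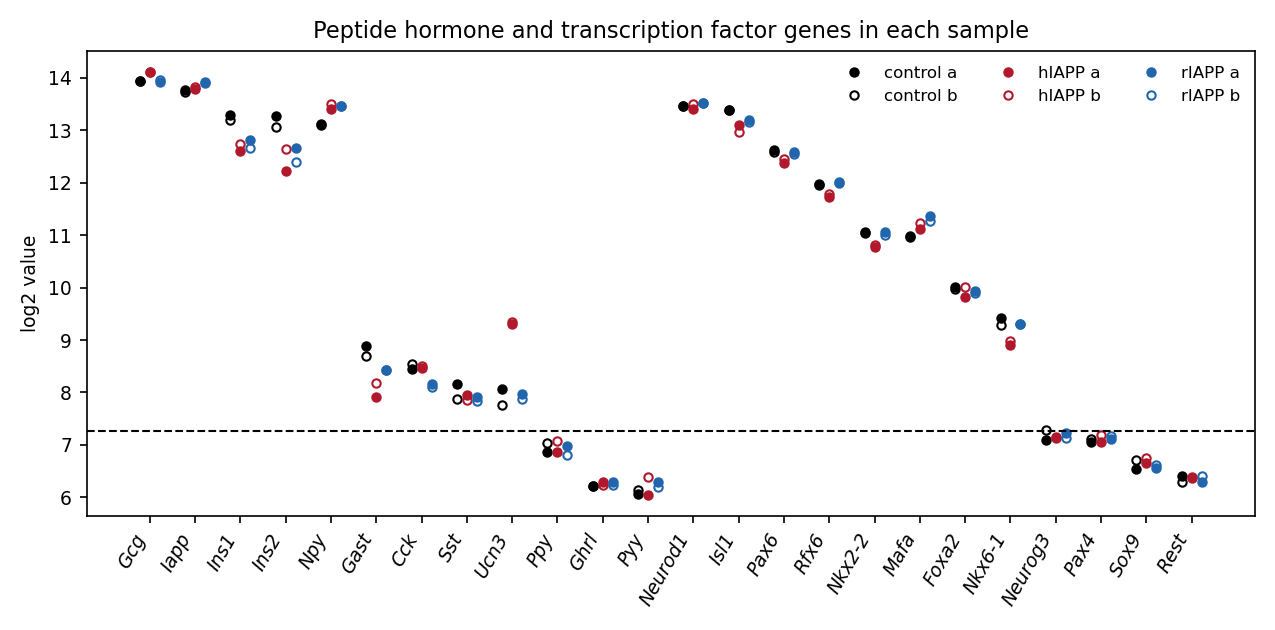
Log2 value (vertical axis) of 12 peptide hormone genes and 12 transcription factor genes in every sample, control in black, hIAPP clone in red and rIAPP clone in blue, filled for sample a and open for sample b; the dashed line is the reference of 7.27. Gcg, Iapp, Ins1, Ins2 and Npy sit at the top in all 6 samples, and Ppy, Ghrl and Pyy lie under the line.

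The label beta-cell line was checked against 15 defining genes. Of these 13 were measured, all 13 exceeded the reference, 12 the strict one, and 9 stood in the top decile, with levels from 7.91 (Ucn3) to 13.74 (Iapp). The lists that follow were chosen with knowledge of the tissue and with earlier results of these data known. An excess of a list over all genes is therefore a description and not a test. Beside their counts stand the shares over all genes: 64.5% above the reference, 50.7% above the strict one and 10.0% in the top decile.

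Among transcription factors of endocrine cells, 23 of 27 measured exceeded the reference (85.2%, against 64.5%), with a median level of 10.66. Neurod1 (13.46 and 13.46), which activates the insulin genes through E-boxes, and Isl1 (13.38 and 13.39), a LIM homeodomain factor needed for islet development, were the brightest. The zinc-finger factors St18 (12.69 and 12.69) and Myt1 (11.79 and 11.68), the paired-box factor Pax6 (12.62 and 12.59) and the RFX family members Rfx6 (11.97 and 11.96) and Rfx3 (11.87 and 11.84) followed. These are factors shared by several islet cell types or by islets and neurons.

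Several other factors of endocrine cells, among them the beta-cell factors Mafa and Nkx6-1, were lower on the scale but above the reference. Mafa, an activator of insulin transcription, read 10.96 and 10.98 and Nkx2-2 read 11.07 and 11.04. Nkx6-1, which restricts cells to the beta lineage, read 9.43 and 9.29. Hnf4a (10.77 and 10.66), Insm1 (10.63 and 10.68), Foxo1 (10.41 and 10.46) and Foxa2 (10.02 and 9.98) lay between them. The 4 factors at or below the reference were Neurog3 (7.10 and 7.28), the switch of endocrine progenitors, Pax4 (7.06 and 7.12), Tcf7l2 (7.09 and 7.03) and Sox9 (6.54 and 6.72), a factor of ducts and progenitors with 0 of 2 exon probe sets above the reference.

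All 22 measured genes of glucose sensing and of the channels behind insulin release exceeded the reference, 20 of them the strict one, and the median level was 11.45. Slc2a2 led at 13.73 and 13.69, while Slc2a1, the transporter of most other cells, read 10.52 and 10.69. Both subunits of the ATP-sensitive potassium channel were bright, with the sulfonylurea receptor Abcc8 at 12.40 and 12.44 and the pore Kcnj11 at 11.77 and 11.68. Of the calcium channels, the P/Q-type Cacna1a (12.09 and 12.04) was brighter on the array than the L-type Cacna1d (10.65 and 10.63) and Cacna1c (10.29 and 10.22). Mitochondrial shuttle and anaplerotic genes were in range too, with Glud1 at 12.42 and 12.40, Me1 at 12.10 and 12.01, Gpd2 at 11.94 and 11.89 and Pc at 9.45 and 9.53. The cation channels Trpm5 (7.91 and 7.90) and Trpm4 (7.66 and 7.73) were the dimmest members.

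Among genes described as silenced in mature beta cells, 18 of 25 measured exceeded the reference (72.0%, against 64.5%) and 10 the strict one (against 50.7% of all genes), with a median of 8.02, below the 8.44 of all genes. The low members included the best-known ones. Ldha, the lactate dehydrogenase whose absence directs pyruvate to the mitochondria, read 7.62 and 7.81, and Slc16a1, the lactate and pyruvate transporter, 7.55 and 7.50. The hexokinases Hk2 (6.61 and 6.60) and Hk3 (6.74 and 6.59) and the repressor of neuronal genes Rest (6.41 and 6.29, 0 of 4 exon probe sets above the reference) did not reach the reference. Other members were bright: Mgst1 (12.73 and 12.64), a microsomal glutathione transferase, Cat (12.27 and 12.24), the peroxide-degrading catalase, the thioesterase Acot7 (11.04 and 11.08) and Oat (10.04 and 10.14), an enzyme of ornithine metabolism.

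Prohormone processing genes all exceeded the strict reference (12 of 12, against 50.7% of all genes), with a median of 11.79. Pcsk2 read 13.89 in both samples and Pam, which amidates peptides such as IAPP, 13.46 and 13.44. Scg5 (12.98 and 13.05), the 7B2 chaperone of Pcsk2, and Pcsk1n (12.19 and 12.42), an inhibitor of the convertase Pcsk1, were close behind. Pcsk1 itself has no single-symbol entry at gene level, and at exon level 16 of its 16 probe sets exceeded the exon reference with a median of 11.62. The ubiquitous convertases were dimmer, with Furin at 10.72 and 10.81 and Pcsk7 at 8.69 and 8.77.

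Granule proteins formed another bright list, 17 of 20 above the reference (85.0%, against 64.5%) and 11 in the top decile (55.0%, against 10.0% of all genes). The granins Chgb (13.94 and 13.93), Chga (13.55 and 13.59), Scg3 (12.69 and 12.61) and Scg2 (12.52 and 12.50) all stood near the top. Slc30a8, the zinc transporter of the insulin granule, read 13.41 and 13.41, and the autoantigens Ptprn2 (12.58 and 12.60), Ptprn (12.36 and 12.40) and Ica1 (12.39 and 12.37) were close to one another. The isoforms of glutamate decarboxylase split: Gad1 read 10.45 and 10.39 and Gad2 6.63 and 6.54, the latter under the reference. The vesicular monoamine transporter Slc18a2 (6.58 and 6.66) and the proton pump subunit Tcirg1 (7.30 and 7.21) also did not exceed it.

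Of the exocytosis list 32 of 34 exceeded the reference (94.1%, against 64.5% of all genes), at a median of 10.34. The SNARE protein Snap25 read 13.27 and 13.32, complexin 2 (Cplx2) 12.94 and 12.99 and the synaptotagmin Syt5 12.61 and 12.69. Syt7 (12.05 and 12.06) and Syt13 (11.36 and 11.40) were bright, whereas Syt1 (8.04 and 7.97), the calcium sensor of fast synaptic release, and Syt2 (6.75 and 6.70) were dim. Rab3a, Rab3b, Rab3c and Rab3d, small GTPases of secretory vesicles, all read 10.99 or more on average. Exph5 (5.68 and 5.70) was the dimmest member.

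Receptors that act on insulin release exceeded the reference in 27 of 31 cases (87.1%, against 64.5% of all genes). The lipid-sensing receptor Gpr119 was the brightest at 13.16 and 13.13, ahead of the incretin receptor Glp1r (12.60 and 12.63), the growth hormone receptor Ghr (12.39 and 12.45) and the fatty acid receptor Ffar1 (11.70 and 11.68). Gipr (10.85 and 10.90) and Gcgr (10.71 and 10.73), the receptors of GIP and glucagon, were alike on the array. The insulin receptor Insr read 9.05 and 8.95 against 11.74 and 11.70 for Igf1r. The muscarinic receptor Chrm3 (7.49 and 7.44), the calcium-sensing receptor Casr (7.42 and 7.41) and Sstr5 (7.34 and 7.40) lay within 0.25 log2 of the reference, and Npy1r (5.75 and 5.82), Sctr, Insrr and Htr2b lay below it.

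Ion channels varied widely. Of the potassium channel list 24 of 31 exceeded the reference (77.4%, against 64.5% of all genes), led by Kcnip1 (12.51 and 12.51), an accessory protein of A-type channels, the ERG channel Kcnh6 (11.76 and 11.76) and Dpp6 (11.51 and 11.52). Kcnb2 read 10.73 and 10.74 and Kcnma1, the large-conductance calcium-activated channel, 11.14 and 11.18. Islet channel Kcnk16 was lower at 8.38 and 8.24. Of the sodium and calcium channel list 28 of 36 exceeded it (77.8%). The ER calcium pump Atp2a2 (13.06 and 13.04) and the sodium channel subunit Scn3b (12.32 and 12.25) led it, Scn8a read 10.55 and 10.37, and Scn9a (6.10 and 6.07), Scn1a (6.25 and 6.10) and Cacna1e (6.95 and 6.89) did not exceed the reference.

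**Figure D4:**
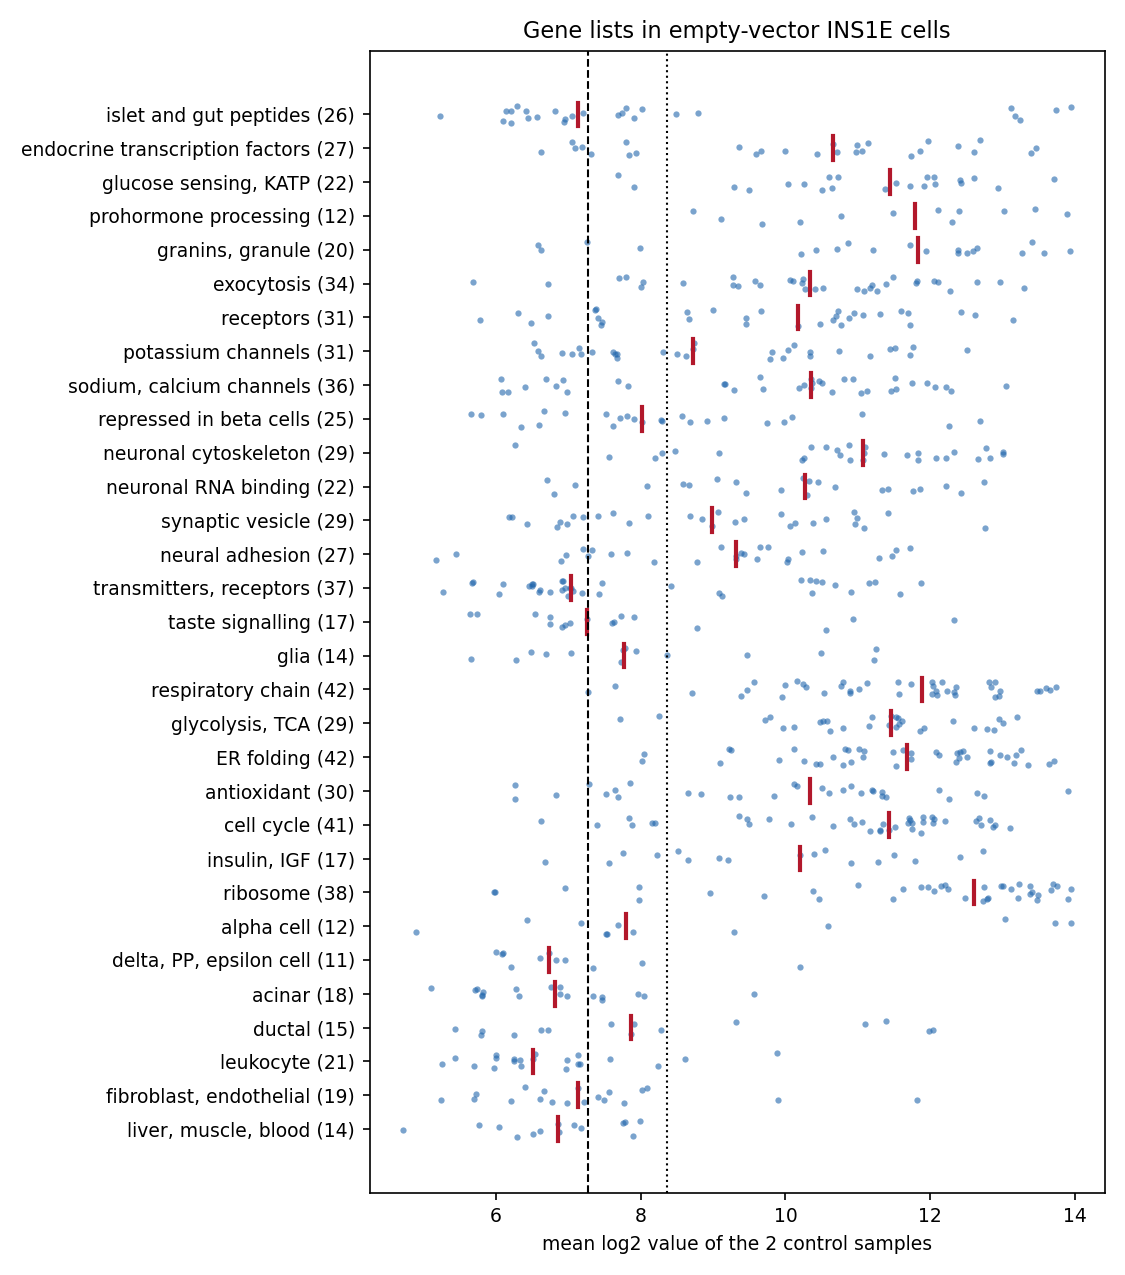
Mean log2 value of the 2 control samples (horizontal axis) for each measured member of the 31 gene lists (vertical axis, number of measured members in brackets), 1 blue point per gene with a red bar at the list's median; dashed and dotted lines are the references of 7.27 and 8.36. The endocrine transcription factor, processing, granule, energy, ER and cell cycle lists lie mostly to the right of both lines, and the lists of other pancreatic and blood cell types have medians near or left of the dashed line.

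Genes named for neurons were split. Over 5 neuronal lists 106 of 144 measured genes exceeded the reference (73.6%, against 64.5% of all genes). The strict one was exceeded by 91 (63.2%, against 50.7% of all genes), and the median was 9.41. These counts include splicing factors that are not particular to neurons, among them Ptbp1, Esrp1 and Esrp2. The 6 lists of endocrine transcription factors, glucose sensing, prohormone processing, granule, exocytosis and receptor genes together reached 133 of 146 (91.1%) and 117 (80.1%), with a median of 10.72. The peptide hormones (12 of 26, median 7.13) and the alpha-cell markers (9 of 12, median 7.79) are not among these 6. The neuronal lists differed sharply from one another, from the cytoskeleton at the bright end to transmitter receptors at the dim end.

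In the list of neuronal cytoskeleton and neurite growth 28 of 29 genes exceeded the reference (96.6%, against 64.5% of all genes) and 25 the strict one (86.2%). Dpysl2, a collapsin response mediator, read 13.00 and 13.02, and the intermediate filament peripherin (Prph) 13.02 and 12.99. Uchl1 (12.73 and 12.92), the neuronal ubiquitin hydrolase PGP9.5, Map1b (12.78 and 12.77), Stmn1 (12.64 and 12.68) and doublecortin, Dcx (12.21 and 12.22), followed, and the tau gene Mapt read 11.40 and 11.33. Tubb3, the tubulin used to stain neurons, was lower at 10.30 and 10.21, and Gap43 read 9.17 and 8.99. The neurofilaments ranged from Nefl (11.08 and 11.09) to Nefm (7.55 and 7.57), and Stmn4 (6.24 and 6.29) was the 1 member below the reference.

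The list of neuronal RNA-binding and splicing factors also holds the non-neuronal Ptbp1, Esrp1 and Esrp2. Of its 22 measured genes 19 exceeded the reference (86.4%, against 64.5% of all genes). Mbnl2 (12.74 and 12.75), Khdrbs3 (11.85 and 11.86), Celf3 (11.76 and 11.76) and Elavl4 (10.27 and 10.22) were well above it. Both Ptbp1 (12.41 and 12.43), the splicing repressor of non-neuronal cells, and its neuronal relative Ptbp2 (10.31 and 10.33) were present at high signal. The epithelial factor Esrp1 (11.31 and 11.35) was bright and Esrp2 (6.73 and 6.69) not above the reference. Rbfox family members split in the same way, with Rbfox2 at 11.43 and 11.40, Rbfox3 (the neuronal antigen NeuN) at 10.25 and 10.33 and Rbfox1 at 7.10 and 7.09. Srrm3 and Srrm4, regulators of neuronal microexons, were read by 1 exon-level probe set each, neither above the exon reference.

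Synaptic vesicle genes gave 21 of 29 above the reference (72.4%, near the 64.5% of all genes), at a median of 8.99. Synaptophysin (Syp) read 12.75 in both samples, amphiphysin (Amph) 11.44 and 11.40 and synapsin 1 (Syn1) 11.06 and 11.11. The active zone proteins Pclo (10.96 and 10.92) and Bsn (9.32 and 9.28) were also above the strict reference. Transporters that load or recover transmitters were at the other end: Slc17a6 (6.32 and 6.04), Slc18a3 (6.80 and 6.90), Slc6a2, Slc6a3, Slc6a4 and Slc5a7 all stayed below the reference.

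Transmitter enzymes and receptors were the dimmest neuronal list, with 16 of 37 above the reference (43.2%, against 64.5% of all genes). The count was 25 with the 90th percentile of the receptor genes as reference and 26 with vomeronasal receptors alone. Enzymes of monoamine handling were bright, namely Maob (11.85 and 11.88), Ddc (11.17 and 11.15), which makes dopamine and serotonin from their precursors, and Maoa (10.53 and 10.47). The rate-limiting enzymes of the same routes were not, with Th at 7.46 and 7.48, Tph1 at 6.58 and 6.35 and Tph2 at 6.01 and 6.07. A few receptor subunits stood out, namely Gabra4 (11.58 and 11.58), the nicotinic Chrnb2 (11.18 and 11.30), the kainate subunit Grik5 (10.45 and 10.41), the glycine receptor Glra1 (10.34 and 10.41) and the NMDA subunit Grin1 (10.35 and 10.32). Their usual partners were low: Grin2a (7.09 and 6.96) and Grin2b (6.48 and 6.56) did not exceed the reference, nor did the nicotinic Chrna4 (6.56 and 6.62) or Glrb (7.00 and 6.98).

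Neural adhesion molecules exceeded the reference in 22 of 27 cases (81.5%, against 64.5%), led by Ncam1 (11.70 and 11.75), Nfasc (11.53 and 11.52), Cdh2 (11.47 and 11.46) and Nrcam (11.28 and 11.31). Glial markers gave 9 of 14 (64.3%, close to the 64.5% of all genes). The 3 brightest of these were the myelin-associated Pmp22 (11.22 and 11.28), Mbp (11.22 and 11.23) and Cnp (10.54 and 10.45), whereas Gfap (6.74 and 6.65), S100b (5.71 and 5.60), Slc1a3 and Aqp4, markers of astrocytes, were below the reference. Taste-cell genes exceeded it in 8 of 17 cases (47.1%), a count that was 4 with the 99th percentile of the receptor genes and 14 with vomeronasal receptors alone. The exception at the bright end was Gnat3 (12.30 and 12.36), gustducin, the G protein of taste receptor cells, while Plcb2 (7.04 and 7.01), Gng13 (5.69 and 5.61) and the receptor subunits Tas1r2 (7.08 and 7.44), Tas1r3 (6.80 and 6.70) and Tas1r1 were not above the reference.

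Energy metabolism genes were bright as groups. All 42 nuclear-encoded subunits of the respiratory chain and ATP synthase exceeded the reference, 24 of them in the top decile (57.1%, against 10.0% of all genes), at a median of 11.88. Ndufc2 of complex I (13.71 and 13.75), the ATP synthase subunits Atp5f1d (13.65 and 13.67) and Atp5f1b (13.48 and 13.46), and Cox6a1 (13.59 and 13.61) and Cox8a (13.51 and 13.52) of complex IV led the list. The muscle form Cox6a2 (7.28 and 7.26) and the lung form Cox4i2 (7.53 and 7.76) were at its bottom, close to the reference. Glycolysis and citric acid cycle genes exceeded the reference in 29 of 29 cases, led by Gpi (13.18 and 13.22), Mdh2 (13.00 and 13.00), Idh3g (12.95 and 12.96) and Cs (12.87 and 12.90); Ldha, at 7.71 on average, was the dimmest of them.

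All 42 genes of ER folding and degradation exceeded the reference, 40 the strict one and 24 the top decile (57.1%). The chaperone Hspa5 (BiP) read 13.72 and 13.71, the disulfide isomerases Pdia3 and P4hb 13.65 and 13.64 and 13.25 and 13.25, and Hsp90b1 13.17 and 13.19. Xbp1, the transcription factor of the unfolded protein response, read 13.05 and 13.07. The stress-linked genes Ddit3 (CHOP), at 9.20 and 9.25, and Trib3, at 7.96 and 8.08, were dimmer, and Derl3 read 8.01 and 8.09. Ero1b, the ER oxidase enriched in islets, read 10.52 and 10.79.

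Antioxidant enzymes exceeded the reference in 27 of 30 cases, against 64.5% of all genes. Thioredoxin (Txn1, 13.91 and 13.89), Sod1 (12.66 and 12.82), Prdx1 (12.67 and 12.62) were the brightest, and Txnip, the glucose-responsive inhibitor of thioredoxin, read 12.11 and 12.12. The glutathione peroxidases were mostly dim: Gpx4 read 10.50 and 10.51, but Gpx1 read 7.28 and 7.31 (1 of 2 exon probe sets above the reference) and Gpx2 6.32 and 6.22. Catalase, described as low in rodent beta cells, was bright here at 12.27 and 12.24, with 14 of 14 exon probe sets above the exon reference.

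Cell cycle and replication genes exceeded the reference in 40 of 41 cases (97.6%), 21 in the top decile (51.2%). Cyclin D2 (Ccnd2, 13.11 and 13.10), the cyclin that beta cells use, was far brighter on the array than Ccnd1 (8.02 and 7.75). Pcna (12.86 and 12.93), Cdc20 (12.86 and 12.87), Mki67 (12.83 and 12.83), Top2a (12.72 and 12.67) and Cdk4 (12.68 and 12.68) followed. Cdkn2a, the inhibitor locus p16, was the 1 member not above the reference, at 6.62 and 6.63, and Cdkn2b read 7.40 and 7.40. Inhibitor Cdkn1b (p27) was bright at 11.85 and 11.90.

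Insulin and IGF signalling genes exceeded the reference in 16 of 17 cases (94.1%). Igfbp7 (12.74 and 12.72), Akt1 (12.40 and 12.41), Irs2 (11.76 and 11.81) and Igf2 (11.49 and 11.51) were the brightest, while Irs1 read 7.70 and 7.81 and Grb10 was not above the reference at 6.65 and 6.71. The ribosome list reached a median of 12.60, the highest of the 31 lists. Its exceptions Rps9 (6.19 and 5.79), Rpl5 (5.92 and 6.03) and Eef1b2 (7.00 and 6.91) are genes that every growing cell transcribes, so a level under the reference does not show that a gene is silent.

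Markers of other cell types were mostly dim. Bulk RNA cannot tell fewer cells of a type from less RNA per cell. Over 5 lists (delta, PP and epsilon cells; acinar cells; leukocytes; fibroblasts and endothelium; liver, muscle and blood) 25 of 83 measured markers exceeded the reference (30.1%, against 64.5% of all genes) and 6 the strict one (7.23%, against 50.7%), with a median of 6.84. Leukocyte markers exceeded the reference in 4 of 21 cases. The pan-leukocyte Ptprc read 5.71 and 5.70 and the T-cell Cd3e 5.25 and 5.28, while Cd4 stood apart at 9.86 and 9.91 with 10 of 10 exon probe sets above the exon reference. The complement gene C1qa (8.61 and 8.61) was the other above the strict reference.

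Acinar markers exceeded the reference in 6 of 18 cases, with the trypsinogen gene Prss1 at 5.74 and 5.74, Cpa1 at 5.71 and 5.90 and Cel at 6.93 and 6.85. Bhlha15 (Mist1, 9.55 and 9.59), a factor of many secretory cells, was the 1 above the strict reference. Fibroblast and endothelial markers gave 8 of 19, with Dcn (5.72 and 5.74), Lum (5.32 and 5.16) and Cdh5 (6.64 and 6.57) among those below and Thy1 (11.81 and 11.83), a surface protein of neurons as well as fibroblasts, the brightest. Of 14 liver, muscle and blood markers 4 exceeded the reference and 0 the strict one. Albumin (Alb) read 6.88 and 6.84 and the haemoglobin gene Hba-a1 4.69 and 4.75.

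Ductal markers were divided, with 9 of 15 above the reference. The keratins Krt8 (12.03 and 12.04) and Krt7 (11.98 and 11.98), the bicarbonate transporter Slc4a4 (11.38 and 11.41) and Epcam (11.09 and 11.11), a general epithelial protein, were bright, and Krt19 (6.82 and 6.63), Krt18 (5.77 and 5.82), Cftr (5.87 and 5.75) and Spp1 (6.31 and 6.19) were not above the reference. Alpha-cell markers were divided too, with 9 of 12 above the reference and 5 above the strict one. Besides Gcg and Gc, the factor Etv1 (13.00 and 13.07) was bright and the collectrin gene Cltrn read 10.62 and 10.57. The alpha-cell genes Irx1 (7.67 and 7.71) and Irx2 (7.50 and 7.58) lay between the references, and Ttr (7.16 and 7.21), Dpp4 (6.46 and 6.41) and Pou3f4 (4.93 and 4.86) did not exceed the lower one.

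The summed linear level of each marker list, on the log2 scale, differed by at most 0.03 between the control samples. The brightest members weigh most in such a sum. Among leukocyte markers Cd4 rose by 0.78 with hIAPP and 0.70 with rIAPP. Called in neither comparison were 16 of 21 (76.2%, near the 74.3% of all genes). Among fibroblast and endothelial markers Thy1 fell by 0.46 and 0.69, and 17 of 19 were called in neither (89.5%, against 74.3% of all genes). For alpha-cell markers it read 15.31 and 15.33 in the control and 15.27 to 15.32 in the other clones, for ductal markers 13.89 and 13.89 against 13.79 to 13.95, and for leukocyte markers 11.71 and 11.69 against 11.94 or more. For acinar markers it read 11.40 and 11.43 against 11.41 to 11.43. The sum of fibroblast and endothelial markers read 12.74 and 12.75 in the control, 12.64 and 12.69 in the hIAPP clone and 12.43 and 12.46 in the rIAPP clone. That of delta, PP and epsilon-cell markers read 11.18 and 11.18, against 11.02 or less with hIAPP and 11.22 and 11.21 with rIAPP. Liver, muscle and blood markers read 10.86 and 10.86 against 10.90 to 10.93, and glial markers 13.07 and 13.09 against 13.08 to 13.21. The part of these lists in the comparisons below was not tested.

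MicroRNA genes were dim as a class, and their features need not read the mature RNA. Of 363 measured, 92 exceeded the reference (25.3%, against 64.5% of all genes), and their median was 5.95. Mir375, the islet microRNA whose mature sequence is given above, read 9.91 in control a and 9.85 in control b, and Mir7-1, which encodes miR-7a, 8.50 and 8.70. The highest signal among microRNA genes was that of Mir325 (10.93 and 10.97).

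The bright end of the profile was largely shared by the 3 clones. The 100 brightest genes of control a and control b had 95 in common, and those of the control and of the hIAPP and rIAPP clones shared 87 and 90; 86 were among the 100 brightest of all 3 clones and 9 of the control alone. Of the 500 brightest, 440 were shared by all 3 and 30 belonged to the control alone. Within 0.25 log2 of the control in both other clones lay 428 of the 500, and 14427 of all 18166 genes. Control a and control b shared 486 of their own 500 brightest.

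Differences between the clones were tested with limma over all 18166 genes at an adjusted p under 0.05. The comparisons share their control samples, so they are not independent of each other. The hIAPP clone differed from the control in 3458 genes (19.0%) and the rIAPP clone in 2906 (16.0%). Of the 500 brightest control genes 39 were higher and 61 lower in the hIAPP clone, where 10.1% of all genes were higher and 8.93% lower. In the rIAPP clone 29 were higher and 51 lower, against 8.69% and 7.30% of all genes. The shares of called genes were close to the background in both. The same control samples chose the bright genes and enter the differences, so nothing is read from the split between higher and lower. In total 375 of the 500 were called in neither comparison.

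Among the hormones, Ins1, at 13.24 in the control, fell by 0.57 with hIAPP (SE 0.0791, adjusted p = 0.00243, limma) and fell by 0.51 with rIAPP (adjusted p = 0.00565), with no overlap between the groups. For Ins2 the hIAPP samples read 12.23 and 12.64 against 13.28 and 13.06, a difference of −0.74 (SE 0.150, adjusted p = 0.0131), and the rIAPP clone differed by −0.64 (adjusted p = 0.0269). The 2 Ins2 calls ended without control replicate 1, at −0.63 (adjusted p = 0.0817) and −0.53 (adjusted p = 0.139), and with exon-level medians, at −0.30 and −0.22. The hIAPP call also ended without hIAPP replicate 1 (−0.53, adjusted p = 0.0615), and the rIAPP call without control replicate 2 (−0.75, adjusted p = 0.0536) or rIAPP replicate 2 (−0.50, adjusted p = 0.158). Npy rose by 0.34 and 0.35 (adjusted p = 0.00434 and 0.00495). Gcg differed by 0.17 in the hIAPP clone (adjusted p = 0.0419, lost in 8 of the alternatives tried) and by −0.01 in the rIAPP clone. Iapp differed by 0.06 and 0.17 (adjusted p = 0.406 and 0.0507), neither past the threshold. Whether its probes also read RNA of the IAPP transgenes is not known here. Iapp also lies near the compressed top of the array range, so these differences do not measure endogenous Iapp alone.

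Outside the hormones, the largest falls among the 500 brightest control genes were those of Fetub, fetuin B of the cystatin family, and Kcnip3, a calcium-binding channel partner also known as DREAM. Fetub read 12.70 and 12.66 in the control and 10.64 and 10.81 in the hIAPP clone, and fell by 1.95 (SE 0.0642, limma adjusted p = 4.72e-06). Kcnip3 read 12.65 and 12.68 in the control and fell by 1.06 with hIAPP and fell by 0.89 with rIAPP. Neither gene's groups overlapped. In the hIAPP clone Gpr119, the brightest of the 31 receptors that act on insulin release, fell by 0.71 (adjusted p = 6.70e-05) and Castor2, a relative of the arginine sensor Castor1 of the mTORC1 pathway, by 0.68. In the rIAPP clone Edn3 (endothelin 3) fell by 0.98, Nrsn1 (neurensin 1, a neuronal vesicle protein) by 0.77, the kinase Pak3 by 0.75 and Pgap1, an enzyme that remodels GPI anchors, by 0.66.

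The largest rises among the same 500 were smaller. The cationic amino acid transporter Slc7a2 read 12.71 and 12.68 in the control and rose by 0.63 with hIAPP (SE 0.0484; adjusted p = 0.000156, limma) and by 0.44 in the rIAPP clone. Glp1r rose by 0.44 and 0.45, the phospholipid phosphatase Plpp1 by 0.46 and 0.47 and the disulfide isomerase Pdia4 by 0.49 and 0.46. Plp2 rose by 0.46 in the hIAPP clone and Edem1, of ER-associated degradation, by 0.52 in the rIAPP clone.

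**Figure D5:**
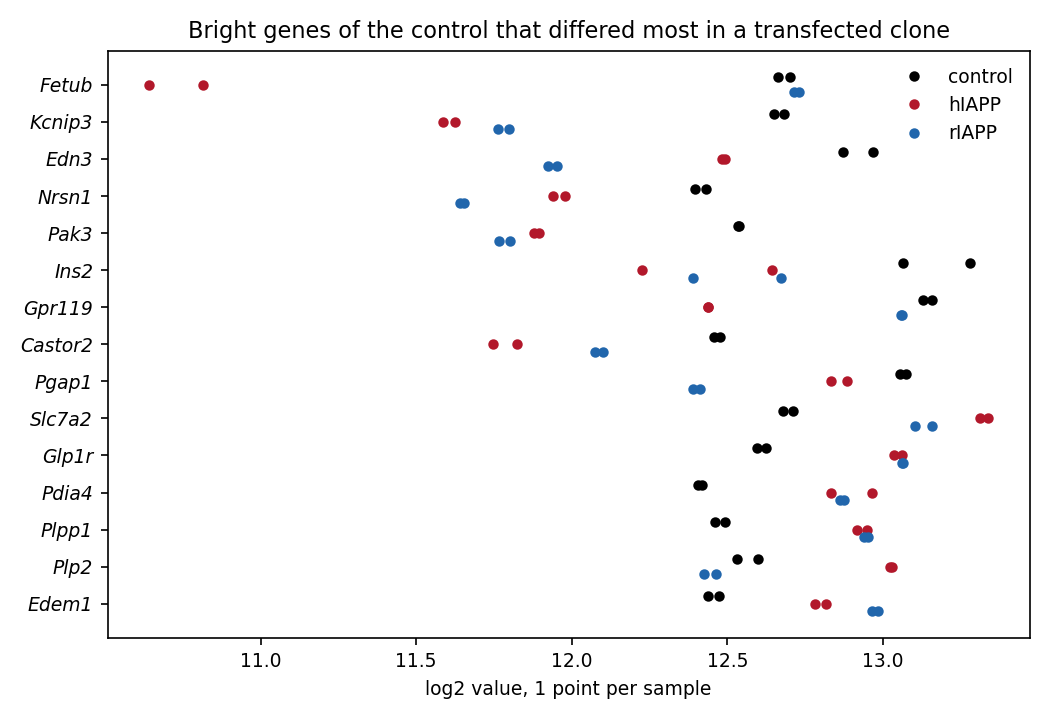
Log2 value of each sample (horizontal axis; control black, hIAPP clone red, rIAPP clone blue) for the genes of the control's 500 brightest with the largest called falls and rises in a transfected clone (vertical axis). Fetub in the hIAPP clone is the farthest from the control, at 10.64 and 10.81 against 12.70 and 12.66.

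Across the lists the control differed from the other clones to very different extents. Oxidative phosphorylation was among the most even of the bright lists: 38 of its 42 genes were called in neither comparison (90.5%, against 74.3% of all genes). The ribosome list followed with 34 of 38 (89.5%), although Eef1a2 (12.25 and 12.15), the translation factor of neurons and muscle, fell by 2.97 with hIAPP and fell by 0.81 with rIAPP. Cell cycle genes were called in neither in 32 of 41 cases (78.0%).

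The shares called in the endocrine and neuronal lists varied. In the 6 endocrine and 5 neuronal lists together they ran from 35.1% to 54.8% in the hIAPP clone (19.0% of all genes) and from 17.6% (exocytosis) to 58.6% in the rIAPP clone (16.0% of all genes), and no difference from all genes was tested. Of the 29 neuronal cytoskeleton genes 11 were lower and 3 higher in the hIAPP clone (48.3% called, against 19.0%), and 13 were lower and 4 higher in the rIAPP clone (58.6%, against 16.0%), where Dpysl3 (10.22 and 10.24) fell by 2.16. Of the 31 receptors 17 were called in the hIAPP clone (54.8%), 8 higher and 9 lower, and the glucagon receptor Gcgr (10.71 and 10.73) fell by 2.23 with hIAPP and fell by 2.43 with rIAPP. The PACAP receptor Adcyap1r1 (9.44 and 9.46) fell by 1.12 in the hIAPP clone and by more in the rIAPP clone. Of the 27 endocrine transcription factors 13 were called in the hIAPP clone (48.1%) and 8 in the other (29.6%). The largest changes were the rises of Tcf7l2, which lay below the reference in the control, by 0.80 and 0.59, and of Foxo1 by 0.65 and 0.54, and in the rIAPP clone Sox4 fell by 0.58. Bright genes spread less between samples than dim ones, and the part of this in the shares called was not tested.

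Of the 42 ER genes, 18 were higher and 1 lower in the hIAPP clone and 19 higher and 0 lower in the rIAPP clone (45.2% called in each). Over all genes 19.0% and 16.0% were called, and 10.1% and 8.69% were higher. Among the members bright in the control Hspa5 rose by 0.21 and 0.24, Edem1 by 0.34 and 0.52 and Pdia4 by 0.49 and 0.46, and Pdia3, Calr and Canx were not called in either. Larger rises were seen in dimmer members, with Derl3 rising by 2.00 and 1.86 and Sdf2l1 (9.06 and 9.15) by 1.45 and 1.40. Among neuronal genes Grin1 fell by 2.37 with hIAPP and fell by 0.87 with rIAPP. The vesicle protein Sv2c (9.43 and 9.42) fell by 1.81 in the hIAPP clone and fell by 1.79 in the rIAPP clone.

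A few genes crossed the references, lying above the strict one in the control and below the lower one in a transfected clone. In the hIAPP clone these were the channel partner Dpp10 (10.04 against 6.78 in the clone), the phospholipase Plch1 (8.72 against 6.23) and Ptgr2 (9.55 against 6.64). In the rIAPP clone they were Gnat3 (12.33 against 6.36), Cyp2c55 (9.81 against 7.06) and the B-cell signalling genes Blnk (8.63 against 6.96) and Syk (8.37 against 7.12). The reverse pattern, below the reference in the control and above the strict one in the clone, was shown by Car5b, Jag1, Slc17a3, Slfn9, Tmem35b and Zfp40 in the hIAPP clone and by the insulin receptor-related receptor Insrr (6.48 against 8.67) in the rIAPP clone. These genes were chosen by their levels in both groups, so the values are given as a description.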

How the data were processed

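Biotin-labelled RNA from 6 samples of 3 INS1E clones was hybridised to Affymetrix rat gene arrays. The authors deposited log2 values at gene level (36685 features) and exon level (220231), made with Affymetrix Expression Console and RMA per the submitters' processing notes. The sources used here give neither versions nor the array's build. RMA subtracts modelled background, quantile-normalises and summarises probes, which compresses both ends. The platform table gave 1 symbol to 18511 gene-level features, several to 575 and none to 17599. Through RefSeq gene identifiers or synonyms 20 symbols were updated (16683 probe sets at exon level), and 291 genes had several features.

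Percentiles are shares of the 18166 genes. The control profile has no test. Clones were compared with limma 3.58.1 in R 4.3.3 (3 residual and 4.39 prior degrees of freedom, Benjamini-Hochberg adjustment over all genes), tested on simulated data. Tables, sequences and figures used Python 3.11.15, pandas 2.3.3, numpy 2.4.6, Biopython 1.88 and matplotlib 3.10.9. The members and the 31 lists (870 genes, 766 measured) were chosen with earlier results of these data known. Named genes are the 40 brightest, the 20 brightest outside ribosomal, translation, cytoskeletal and predicted genes, list members, the 10 largest differences between control samples, and the 5 largest called falls and rises per comparison among the 500 brightest. Genes that crossed the references were named after their values were seen. Several genes of these lists are not reported here.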

Additional observations from a re-analysis of the deposited data

How the results depend on the processing

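Of the levels recomputed in the control 251 moved by no more than the SD of the samples and 14 by more. The 14 were those where several features of a gene were averaged or the dimmest taken. Leaving out 1 of 2 samples always moves a mean by less than their SD. A gene with 1 feature cannot move when features are averaged or the dimmest is taken. The 251 therefore say little about stability. Of the percentiles recomputed with exon-level medians, 42 moved by more than the SD of the control samples and 7 did not. Members of the 5 other-cell-type lists above the reference numbered 25; with the 90th percentile of the receptor genes these members were 43, with the 99th 6 and with vomeronasal receptors alone 45. Genes called against the control ranged from 1998 to 2585 in the hIAPP clone and from 1219 to 1657 in the rIAPP clone when 1 replicate of the groups compared was left out. Without control replicate 1 they were 1998 and 1363, without control replicate 2 they were 2244 and 1657, and without either rIAPP replicate the rIAPP count was 1339 or 1219. Exon-level medians, over 16728 genes, gave 1336 and 949. Other settings gave more: 4327 and 3993 when the modelled spread could follow brightness. Over the 12042 genes above the reference in at least 1 clone, 4015 and 3605 were called. The Gcg difference in the rIAPP clone turned from −0.01 to 0.0136 without rIAPP replicate 1, and was −0.0303 without rIAPP replicate 2. Same-lettered samples did not deviate together (correlations −0.0414, 0.000961 and 0.000535). With 2 samples a group this cannot show whether they were handled together, and the labels do not say. With the letter as a replicate block 3115 and 2566 genes were called. Differences were recomputed for Ins1, Ins2, Iapp, Gcg, Npy, the largest called falls and rises, and the genes that crossed the references. Of these 471 differences, 450 kept direction and side of the threshold, 18 lost the call and 2 gained it. Most of these genes were chosen for large differences in the same samples, so the 450 do not describe calls over all genes. The arrays' number limits the precision, and signal near the reference cannot separate low expression from background.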

Other observations

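The brightest features of the control arrays are mostly outside the 18166 genes. Of the 100 brightest features 34 had 1 gene symbol, 6 several and 60 none, and of the 20 brightest 4, 2 and 14. Of the 1000 brightest 398 had no symbol. Ranks above therefore hold among named genes only.

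Some genes with no single-symbol feature at gene level were read at exon level in the control. The median probe set of Tpi1, a glycolytic enzyme, read 12.20, and that of the ATP synthase subunit Atp5mc2 12.44. Cadm2, a neural adhesion molecule, had 9 of 9 probe sets above the exon reference at a median of 9.47, and the potassium channel Kcnn2 9 of 9 at 9.52. Gria2, the AMPA receptor subunit, had 5 of 14 above it at a median of 6.75.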
